A study of Mus musculus with 3 samples.

Results

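The genes described here encode the folding, translocation, degradation and stress-sensing machinery of the endoplasmic reticulum. The set was defined by a list of 43 gene symbols, and all 43 have a row in the deposited table of 20308 genes. Their RNA was sequenced in muscle stem cells, or satellite cells, from 3-month-old Pax7-ZsGreen mice, in which the green reporter ZsGreen marks cells that use Pax7, the transcription factor of these stem cells. Muscle of several animals of the same age was digested with collagenase and dispase, and some 200000 cells carrying the reporter were collected by flow sorting for each library. The series title and design name the hindlimb as the source, while the tissue label names the tibialis anterior, a hindlimb muscle. The 3 libraries (replicates 1, 2 and 3) form 1 group with no untreated or undigested sample beside it, so the data hold no comparison between conditions. The labels do not say that the libraries came from separate animals, so p-values measure only how these samples vary among themselves, and that variation may be technical.

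Values are TPM (transcript shares corrected for length and scaled to a fixed sum), and a level is therefore a share of the measured transcripts and not an amount per cell. In a bulk sample, fewer cells of a type and less RNA per cell cannot be told apart. Depth is unknown, because TPM keeps no read totals. Across all genes the libraries had Spearman correlations of 0.8819 to 0.8892 with each other. All 10 satellite cell markers, among them Pax7, whose reporter was used for the sort, lay above 1 TPM by the test described below, summing to 6610 to 7125 TPM per library. Sdc4 alone gave 3915 to 4272 TPM of that sum, and Pax7 had 46.4 to 56.8 TPM. Of all genes tested, 60.8% lay above 1 TPM. Plasma and B cells are rich in endoplasmic reticulum, and 3 of 9 of their markers lay above 1 TPM, with sums of 65.4 to 86.7 TPM. Those 3 were Sdc1 (36.9 to 45.1 TPM), Cd79a (8.45 to 27.4 TPM) and Igj (11.9 to 15.9 TPM). The defining genes Tnfrsf17, Ms4a1 and Pou2af1 were listed at 0 in every library, and Mzb1 reached at most 0.38 TPM. Summed markers ranged from 2089 to 2340 TPM for fibro-adipogenic cells (5 of 9 above 1 TPM) and from 1572 to 2876 TPM for endothelial cells (8 of 8). Fabp4 alone gave 1356 to 2587 TPM of the endothelial sum, and the fibro-adipogenic sum was mostly Gsn, Col3a1 and Dpt. Dcn (97.1 to 175 TPM) and Ly6a (23.4 to 41.2 TPM) also lay above 1 TPM. Lum, Pi16, Pdgfra and Cd248 were not decided, with Pdgfra at 0.06 to 4.98 TPM. Summed levels ranged from 235 to 331 TPM for leukocytes (4 of 9) and from 77.5 to 189 TPM for mature fibres (4 of 9). The part of these cells in the levels below was not tested.

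Proteins bound for secretion or for membranes enter the endoplasmic reticulum while they are being made. The signal recognition particle brings the ribosome to the Sec61 channel, signal peptidase removes the leader, and lectin chaperones and disulfide isomerases fold the chain. Chains that fail to fold are pulled back into the cytosol and degraded, and the sensors Ern1 (IRE1), Atf6 and Eif2ak3 (PERK) answer a build-up of unfolded protein by raising the supply of folding factors. In satellite cells, translation control through the PERK branch is known to take part in keeping the stem cell state.

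The regulatory letters best known for this gene group are the endoplasmic reticulum stress elements, read by ATF6, XBP1 and the CCAAT-binding factor NF-Y. The promoters that carry them are shown because they join members of very different level. RefSeq promoters (GRCm38.p6, 250 bases before to 50 bases after a transcript start) were found for 33 of the 43 genes. Searched on both strands, the element ERSE, CCAAT and CCACG with 9 bases of any kind between them, occurred in the promoters of 5 of these 33 genes, or 15.2%. Over all 27025 genes with a promoter in the table the share was 0.137%. The element ERSE-II, ATTGG and CCACG with 1 base of any kind between them, occurred in 1 of the 33 (3.03%), against 0.0444% of all genes. Both elements were searched because they are known for this gene group, so their excess over all genes is not an independent result. The XBP1-type core TGACGTGG and the ATF4-type element TGATGNAAT (N for any base) occurred in 0 of the 33, against 0.714% and 1.08% of all genes. No member promoter held more than 1 match, so no matches overlap. A match is a description of letters and not a measured binding site. The 6 stretches follow, 5′ to 3′ on the strand of the gene, with the matched letters in capitals (read on the opposite strand in Calr and Creld2).
Calr, chr8:84847045-84847123, minus strand: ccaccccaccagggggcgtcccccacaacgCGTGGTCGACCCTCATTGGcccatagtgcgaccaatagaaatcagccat
Canx, chr11:50325770-50325848, minus strand: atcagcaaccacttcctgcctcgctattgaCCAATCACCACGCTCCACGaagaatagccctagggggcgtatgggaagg
Pdia6, chr12:17266461-17266539, plus strand: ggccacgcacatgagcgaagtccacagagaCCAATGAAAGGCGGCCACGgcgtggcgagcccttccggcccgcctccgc
Creld2, chr15:88819490-88819568, plus strand: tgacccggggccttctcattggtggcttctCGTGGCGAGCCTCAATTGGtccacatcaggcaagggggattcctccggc
Syvn1, chr19:6046502-6046575, plus strand: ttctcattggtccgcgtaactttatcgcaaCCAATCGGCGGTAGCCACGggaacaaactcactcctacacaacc
Herpud1 (ERSE-II), chr8:94386347-94386417, plus strand: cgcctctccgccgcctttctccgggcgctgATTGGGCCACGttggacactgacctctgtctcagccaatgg

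The first matched base lay between 162 bases (Calr) and 44 bases (Syvn1) before the RefSeq transcript start. The levels of the 5 genes with ERSE ran from the highest of the whole set, Calr at 2777 TPM, to Creld2 at 31.03 TPM, and Herpud1 averaged 175 TPM. These promoters were shown because of this range of level, so the range is not an independent result.

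**Figure D1:**
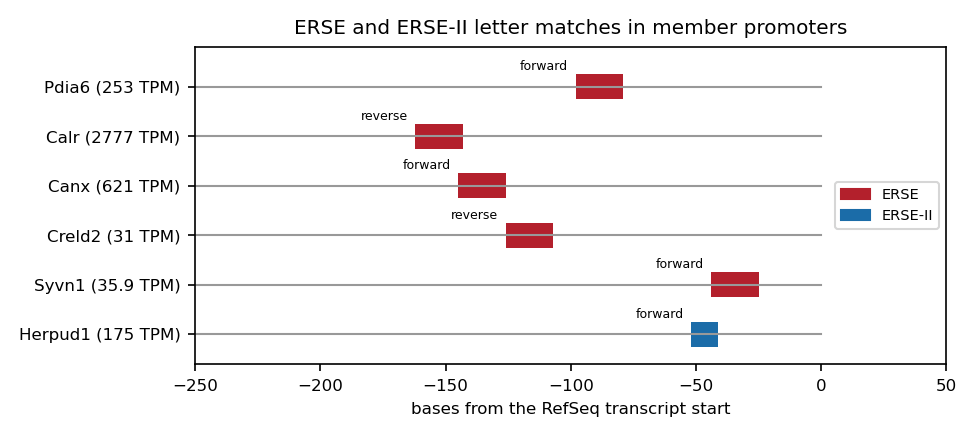
Positions of ERSE (red) and ERSE-II (blue) letter matches in the promoters of 6 member genes, as bases from the RefSeq transcript start, with each gene's mean TPM over 3 libraries beside its name. Matches start between 162 and 44 bases before the start, and the genes' levels range from 31.03 to 2777 TPM.

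Most of the genes were above 1 TPM, and more than the background share were abundant. Levels were tested with limma's moderated test on log2(TPM + 0.1) over all 12822 genes above 0 in at least 1 library, against 1 TPM and against 100 TPM, with Benjamini-Hochberg adjustment (threshold 0.05). Above 1 TPM lay 40 of the 43 genes (93.0%), against 60.8% of all genes tested, and Sec61b, Sdf2l1 and Pdia5 were not decided. Above 100 TPM lay 15 of the 43 (34.9%), against 9.54% of all genes tested. Below 100 TPM lay 18 (41.9%), against 85.1% of all genes tested, and 10 were not decided. The median of the 43 means was 102 TPM, and that of all genes tested was 11.54 TPM. Together the 43 genes held 0.835%, 0.881% and 0.949% of all TPM in replicates 1, 2 and 3, a mean of 0.888% ± 0.0574 (SD, n = 3). Calr alone made up 31.1% ± 3.29 of that sum, and the 5 highest genes (Calr, Canx, P4hb, Ssr3 and Pdia3) made up 56.4% ± 3.17. When the genes are ordered by mean, every library of the higher gene exceeded every library of the lower in only 2 of 42 neighbouring pairs. These were Calr above Canx and Pdia3 above Sec62. For the other neighbours the ranges over the libraries overlapped. Within each library, however, Ssr3 exceeded Pdia3, Sec62 exceeded Serp1, Serp1 exceeded Pdia6, Sec61a1 exceeded Herpud1 and Derl2 exceeded Sdf2l1.

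**Figure D2:**
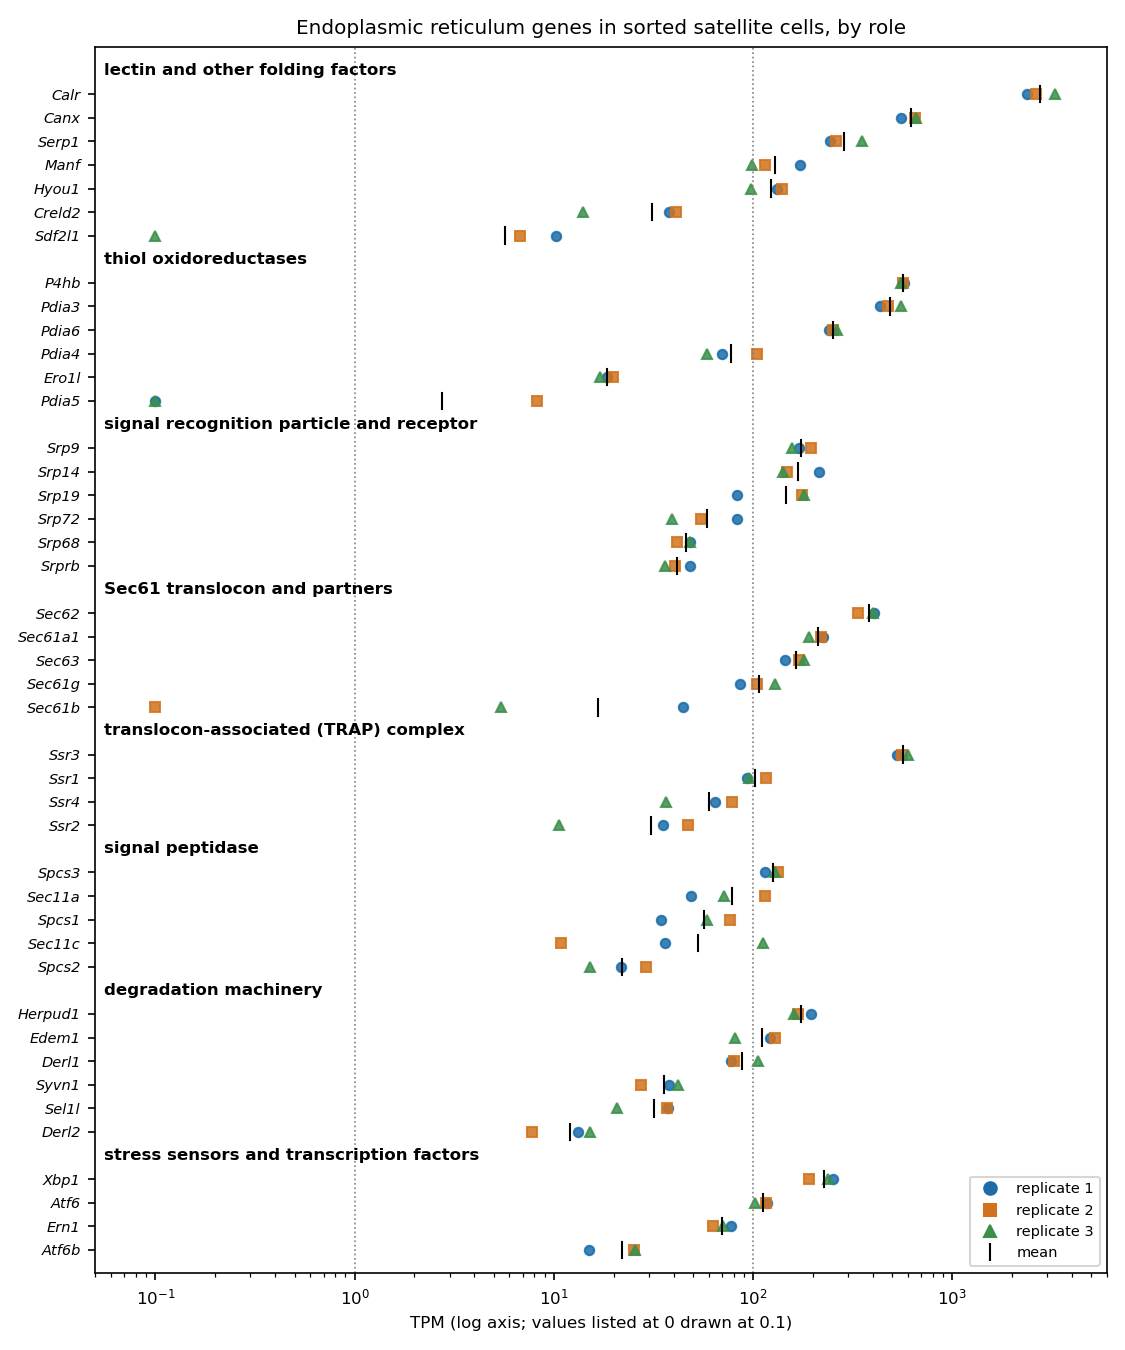
TPM of each of the 43 genes in each library (points) and the mean (black tick), on a log axis, grouped by role; values listed at 0 are drawn at 0.1 and dotted lines mark 1 and 100 TPM. Calr stands above all other members in every library, at 2379 to 3303 TPM, and Sec61b, Sdf2l1 and Pdia5 each have at least 1 library listed at 0.

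The lectin chaperones headed the set. Calreticulin (Calr, ENSMUSG00000003814.8, GRCm38 chromosome 8, 84841850 to 84846934, minus strand), the soluble calcium-binding lectin chaperone, had 2379, 2649 and 3303 TPM in replicates 1, 2 and 3. Its mean of 2777 ± 475 TPM (SD, n = 3) ranked 42 among the 20308 genes and lay above 100 TPM (limma adjusted p = 9.09e-10). Calnexin (Canx, chromosome 11, 50293961 to 50325673, minus strand), its membrane-bound relative that binds the same monoglucosylated chains, had 556, 651 and 656 TPM. Every library of Calr exceeded every library of Canx, with a log2 ratio of 2.15 ± 0.16, or 4.44-fold. This ratio had the same sign in 3 of 3 libraries (exact sign-flip permutation p = 0.25, two-sided, the smallest that 3 libraries can give).

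Chaperone partners spanned a wide range of levels. Serp1, a small protein of the Sec61 channel that protects membrane proteins under stress, had 243, 262 and 354 TPM, all above 100 TPM (limma adjusted p = 1.49e-05). Manf, a secreted survival factor that is also a cofactor of the chaperone BiP, had 173, 115 and 99.6 TPM. Hyou1, an exchange factor of BiP, had 132, 141 and 98.0 TPM. Both straddled 100 TPM and were not decided (limma adjusted p = 0.0734 and 0.0701). Without replicate 3, the lowest library of both, both lay above it (adjusted p = 0.0036 for Manf and 0.00751 for Hyou1). Manf also did so without replicate 2 (0.0315) but was not decided without replicate 1 (0.567). Hyou1 was not decided without replicate 1 or replicate 2 (limma adjusted p = 0.184 and 0.337).

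Creld2, a stress-induced protein of the compartment, had 37.9, 41.2 and 14.0 TPM, with replicate 3 lowest. Manf exceeded Creld2 in 3 of 3 libraries, by 2.16 ± 0.67 on the log2 scale. Sdf2l1, a partner of BiP and its DnaJ cochaperones, had 10.3 and 6.79 TPM in replicates 1 and 2 and was listed at 0 in replicate 3. It was not decided against 1 TPM (limma adjusted p = 0.689), and only without replicate 3, the library at 0, it lay above it (0.000156). Without replicate 1 or replicate 2 Sdf2l1 was not decided (limma adjusted p = 0.912 and 0.976).

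Among the thiol oxidoreductases, which make and rearrange disulfide bonds, P4hb, Pdia3 and Pdia6 lay above 100 TPM and Pdia5 was not decided against 1 TPM. P4hb (chromosome 11, 120560298 to 120573253, minus strand), the classical protein disulfide isomerase and a subunit of collagen prolyl hydroxylase, had 574, 566 and 556 TPM. Its SD of 8.95 TPM was 1.58% of the mean, the smallest relative spread of the 43 genes. Pdia3 (ERp57), which works with calreticulin and calnexin on glycoproteins, had 436, 478 and 557 TPM. P4hb and Pdia3 overlapped: their log2 ratio was 0.21 ± 0.20 with the same sign in 2 of 3 libraries (exact sign-flip permutation p = 0.5).

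Pdia6, an isomerase that also acts on the sensor Ern1, had 241, 254 and 264 TPM. Pdia4 (ERp72), another broad isomerase, had 69.8, 105 and 59.0 TPM and was not decided against 100 TPM (limma adjusted p = 0.0564). Without replicate 2, its highest library, Pdia4 lay below 100 TPM (adjusted p = 0.00702). It was not decided without replicate 1 or replicate 3 (limma adjusted p = 0.0968 and 0.261). Pdia6 exceeded Pdia4 in 3 of 3 libraries by 1.74 ± 0.45 on the log2 scale, or 3.33-fold. Ero1l (ERO1 alpha), the oxidase that recharges disulfide isomerase, had 18.5, 19.8 and 17.1 TPM, a low level with a relative spread of 7.26%. Pdia5 (chromosome 16, 35397312 to 35490873, minus strand) had 8.26 TPM in replicate 2 and was listed at 0 in replicates 1 and 3 (limma adjusted p = 0.528 against 1 TPM). Pdia6 was above Pdia5 in every library, but no fold is given, since Pdia5 was listed at 0 in those libraries and the ratio drawn for them depends on the pseudocount.

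Of the signal recognition particle, which holds and targets the emerging chain, all 5 listed proteins and the receptor subunit Srprb were above 1 TPM. The share over all genes tested was 60.8%. Srp9 and Srp14, which bind each other on the Alu domain of the particle's RNA and pause translation, stood at like levels. Srp9 had 170.2, 196 and 157 TPM and Srp14 had 214, 148 and 141 TPM. Their log2 ratio (Srp14 over Srp9) was -0.08 ± 0.37, with the same sign in 2 of 3 libraries (exact sign-flip permutation p = 0.75). The level of Srp9 is uncertain, since 22.7% of the 31-base words of its longest transcript occur in transcripts of other genes, among them the pseudogene Gm17968.

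Srp19, which helps the particle's RNA to fold, had 82.95, 176 and 181 TPM. Replicate 1 was the low library, and without it Srp19 lay above 100 TPM (limma adjusted p = 4.86e-06), against 0.0535 with all libraries. Without replicate 2 or replicate 3 Srp19 was not decided (limma adjusted p = 0.113 and 0.126). Srp72 and Srp68, which form a dimer on the RNA, had 82.9, 54.9 and 39.2 TPM and 48.1, 41.7 and 48.6 TPM, and overlapped (log2 ratio 0.29 ± 0.55, 2 of 3 libraries). Srprb, the membrane-anchored receptor subunit, had 48.3, 40.5 and 36.4 TPM. Of its words, 29.03% also occur in other genes, mainly Gm20425. Across the 5 proteins, the highest exceeded the lowest 4.44-, 4.71- and 4.63-fold within replicates 1, 2 and 3.

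The Sec61 channel was uneven. Sec61a1, the pore subunit (chromosome 6, 88503579 to 88518905, minus strand), had 225, 219 and 191 TPM and lay above 100 TPM (limma adjusted p = 5.52e-05). Sec61g, a small tail-anchored subunit, had 86.6, 105 and 129 TPM. Sec61b, the other small subunit (chromosome 4, 47474658 to 47483242, plus strand), had 44.5 TPM in replicate 1 and 5.41 TPM in replicate 3 and was listed at 0 in replicate 2. Sec61b was thus below Sec61a1 and below Sec61g in every library, although the 3 proteins form 1 channel. It was not decided against 1 TPM (limma adjusted p = 0.487), and lay above it only without replicate 2, the library at 0 (5.62e-13). Without replicate 1 or replicate 3 Sec61b was not decided (limma adjusted p = 0.879 and 0.705).

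The longest annotated transcript of Sec61b, at 723 bases, was the shortest among the 43 genes, and 19.5% of its 31-base words are shared, mainly with Gm10320. A value of 0 in a table without counts can be a failed estimate. For Sec61g the shared part was 21.3% and for Sec61a1, mainly with an antisense gene, it was 15.7%. Whether reads were counted by strand is not given in the sources used here. Sec62 and Sec63, the partners that open the channel for finished chains, had 406, 338 and 403 TPM and 145, 170.1 and 181 TPM. Sec62 exceeded Sec63 in 3 of 3 libraries by 1.21 ± 0.25 on the log2 scale. Sec62 shares 12.2% of its words with the antisense gene 4933429H19Rik.

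The translocon-associated TRAP complex, which helps some chains to enter the channel, had subunits whose means differed up to 18.3-fold. Ssr3 (chromosome 3, 65379655 to 65392623, minus strand), the gamma subunit, had 528, 564 and 604 TPM. Ssr1, the alpha subunit, had 93.3, 117 and 95.96 TPM, and Ssr4, the delta subunit, had 64.8, 78.3 and 36.6 TPM. Ssr2, the beta subunit, had 35.2, 47.04 and 10.6 TPM, with replicate 3 lowest as in Ssr4, and 12.8% of its exon length overlaps Gm10704. Ssr3 exceeded Ssr2 15.0-, 12.0- and 57.0-fold within replicates 1, 2 and 3. Ssr4 was below Ssr1 in 3 of 3 libraries, by a log2 ratio of -0.83 ± 0.48.

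Signal peptidase, which cuts the leader from the entering chain, had 1 steady and abundant subunit. Spcs3, an accessory subunit needed for activity, had 115, 133 and 128 TPM and lay above 100 TPM (limma adjusted p = 0.0228). That call was lost without replicate 2 (0.128), without replicate 3 (0.0705) and without a variance trend (0.203). Spcs3 also overlaps exons of Asb5, which had 5268 to 6152 TPM, over 2.16% of its exon length. Spcs2, another accessory subunit, had 21.8, 29.2 and 15.3 TPM, below Spcs3 in 3 of 3 libraries (log2 ratio -2.55 ± 0.46). Spcs1, which helps to select substrates, had 34.7, 76.4 and 58.99 TPM, and 16.3% of its exon length overlaps exons of Glt8d1.

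The catalytic paralogues Sec11a and Sec11c differed in order between libraries. Sec11a had 48.6, 115 and 71.8 TPM and Sec11c had 36.3, 10.8 and 113 TPM. Sec11a was higher in replicates 1 and 2 and Sec11c in replicate 3, and their log2 ratio was 1.05 ± 2.09 (exact sign-flip permutation p = 0.75). Sec11a was not decided against 100 TPM and lay below it without replicate 2 (limma adjusted p = 0.0028) or replicate 3 (0.0499). Without replicate 1 Sec11a was not decided (limma adjusted p = 0.463). Of its words, 10.04% are shared with other genes. Sec11c had the largest relative spread of the 40 genes with no library at 0, with an SD of 99.5% of its mean.

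**Figure D3:**
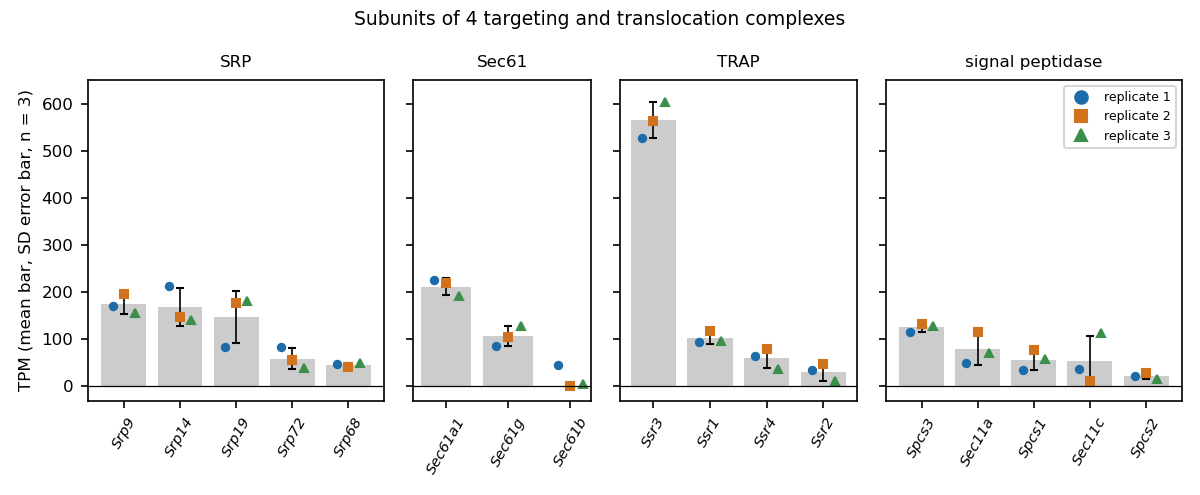
TPM of the subunits of the signal recognition particle (SRP), the Sec61 channel, the TRAP complex and signal peptidase; bars are means, error bars are SD (n = 3) and points are the libraries, with points only for Sec61b, which has a library listed at 0. Ssr3 at 565 TPM stands above all other subunits drawn, and Sec61b is the lowest of its complex in every library.

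Genes of the degradation machinery were above 1 TPM in 6 of 6 cases, against 60.8% of all genes tested. Their median was 61.8 TPM, against 129 TPM for the 7 lectin and other folding factors. Herpud1 (chromosome 8, 94386438 to 94395377, plus strand), which gathers the ubiquitin ligase complex and is itself induced by stress, was highest at 196, 168 and 160.2 TPM (above 100 TPM, limma adjusted p = 0.000259). Edem1, a lectin that hands misfolded glycoproteins to degradation, had 121, 129.6 and 81.3 TPM and was not decided against 100 TPM. The ubiquitin ligase Syvn1 (HRD1) had 37.9, 27.5 and 42.2 TPM, and its scaffold Sel1l had 37.6, 37.2 and 20.8 TPM. These partners overlapped (log2 ratio 0.20 ± 0.75, exact sign-flip permutation p = 0.75).

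The derlins, membrane proteins through which chains leave, were unequal. Derl1 had 77.4, 79.99 and 106 TPM and Derl2 had 13.3, 7.79 and 15.1 TPM. Derl1 exceeded Derl2 in 3 of 3 libraries by 2.89 ± 0.41 on the log2 scale, or 7.42-fold. Of the words of Derl1, 9.09% are shared with 1 processed pseudogene, Gm35638.

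All 4 stress sensors and transcription factors were above 1 TPM, against 60.8% of all genes tested, and Xbp1 was the highest of the 4. Xbp1 (chromosome 11, 5520659 to 5525893, plus strand), the factor whose RNA is spliced by Ern1, had 252, 192 and 239 TPM (above 100 TPM, limma adjusted p = 5e-05). The gene-level values do not separate its spliced from its unspliced RNA. Ern1 (chromosome 11, 106394650 to 106487852, minus strand), the sensor with kinase and RNase activity, had 77.3, 62.9 and 70.8 TPM. It lay below 100 TPM (limma adjusted p = 0.00775), a call lost without replicate 2 (0.0522) and without a variance trend (0.0901). The ratio of Xbp1 to Ern1 was the steadiest of the 18 gene pairs, at 1.69 ± 0.07 on the log2 scale, or 3.23-fold.

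Atf6 (chromosome 1, 170704674 to 170867771, minus strand), the sensor released by cleavage in the Golgi, had 118, 117 and 103 TPM and was not decided against 100 TPM (limma adjusted p = 0.211). Its paralogue Atf6b had 14.98, 25.4 and 25.5 TPM. Atf6 exceeded Atf6b in 3 of 3 libraries by 2.39 ± 0.51 on the log2 scale (5.24-fold), and Xbp1 exceeded Atf6 by 1.01 ± 0.26. Of the 18 pairs, 13 had the same sign in all libraries, and for each of these the exact sign-flip permutation p was 0.25.

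**Figure D4:**
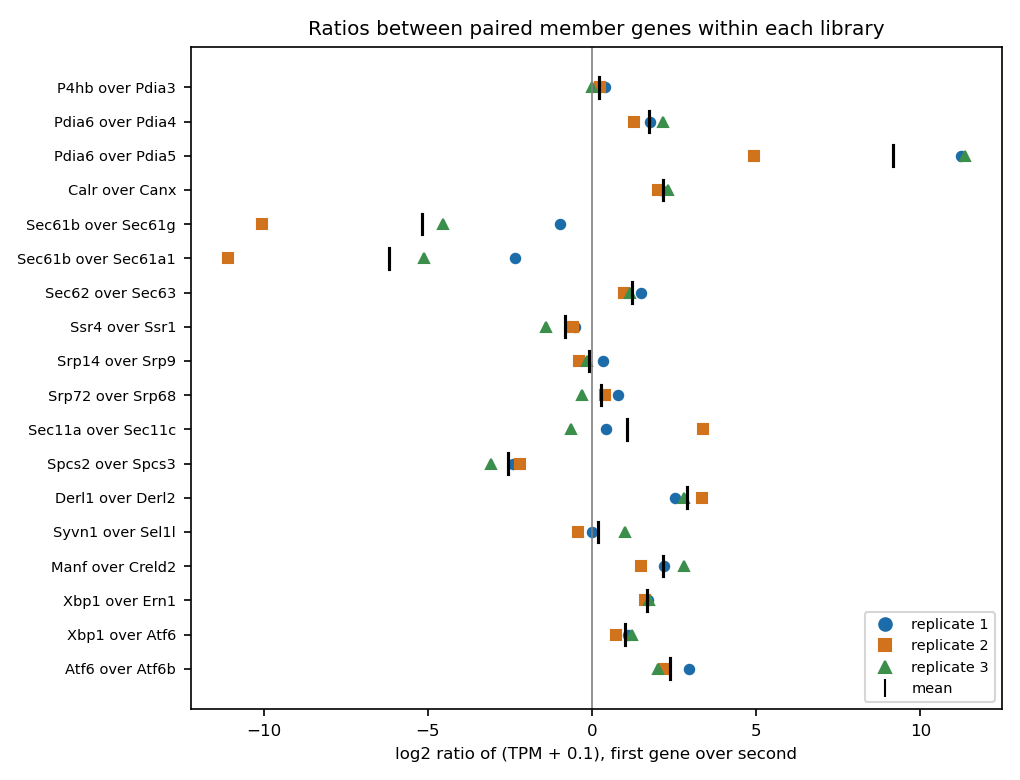
Log2 ratio of (TPM + 0.1) of the first over the second gene of 18 pairs, for each library (points) and as the mean (black tick); ratios with Pdia5 or Sec61b rest on values listed at 0 and on the pseudocount. Calr over Canx (2.15 ± 0.16) and Xbp1 over Ern1 (1.69 ± 0.07) are tight, while Sec11a over Sec11c (1.05 ± 2.09) lies on both sides of 0.

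The spread between libraries followed level. The median relative spread (SD as a percentage of the mean) of the 43 genes was 19.71%, and that of all 11318 genes averaging 1 TPM or more was 39.97%. Within ranges of level the 43 genes were not steadier throughout. The median was 11.55% for the 21 genes between 100 and 1000 TPM and 12.48% for all 1365 genes in that range, and 31.5% for the 19 genes between 10 and 100 TPM and 29.79% for all 5220. For the 2 genes between 1 and 10 TPM, Sdf2l1 and Pdia5, it was 132.6%, against 88.98% for all 4553, and Calr, the only one at 1000 TPM or more, had 17.11%, against 6.92% for all 180. Spread and mean had a Spearman rho of -0.621 across the 43 genes, which share the same 3 libraries and are no replicates. The 6 genes whose longest transcript is under 1500 bases (Srp14, Spcs1, Creld2, Ssr2, Sec61b and Sdf2l1) had a median spread of 53.9%, and the other 37 had 17.1%. Of these 6, all but Srp14 averaged only 5.70 to 56.7 TPM, so length and level cannot be told apart here. Spread and transcript length had a Spearman rho of -0.355 across the 43 genes.

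Steady and unsteady genes were found in several roles. A spread under 10% was measured for 9 genes: Canx, P4hb, Pdia6, Ero1l, Ssr3, Sec61a1, Spcs3, Atf6 and Srp68. A spread over 50% was measured for 5: Pdia5, Sec61b, Sec11c, Sdf2l1 and Ssr2. Replicate 3 held the lowest value for 19 genes and the highest for 15, so the genes did not move together in 1 library.

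**Figure D5:**
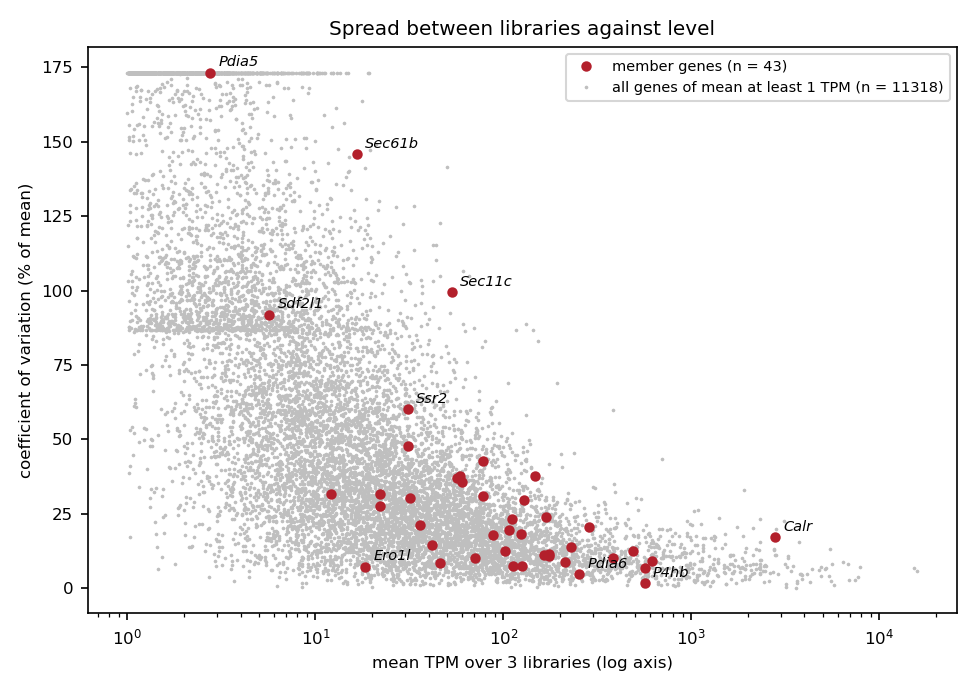
Coefficient of variation between the 3 libraries against mean TPM (log axis) for the 43 genes (red) and for all 11318 genes averaging 1 TPM or more (grey). P4hb at 1.58% and Pdia6 at 4.62% lie at the lower edge, and Sec11c at 99.5% lies high for its level.

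The rest of the pathway was read from a list of 81 further genes of the endoplasmic reticulum. By limma with Benjamini-Hochberg adjustment, 71 lay above 1 TPM (60.8% of all genes tested did), 1 lay below it (2.18% of all genes tested) and 6 were not decided. The other 3 had no library above 0. Above 100 TPM lay 17 of them, against 9.54% of all genes tested, and below it 54, against 85.1%. Their median was 34.13 TPM. Among chaperones and cochaperones, 6 of 12 lay above 100 TPM. Hspa5 (BiP), the Hsp70 of this compartment, had 5412, 5673 and 5533 TPM, above every library of Calr. Hsp90b1 (GRP94) had 1713, 1761 and 1711 TPM and the cochaperone Dnajb9 had 329, 391 and 379 TPM.

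Of 12 further thiol oxidoreductases, 11 lay above 1 TPM, against 60.8% of all genes tested (limma, Benjamini-Hochberg). The same 11, every gene of this list above 0 in at least 1 library, lay below 100 TPM. Of all genes tested, 85.1% did. Txndc5 averaged 70.3 ± 21.9 TPM, Tmx3 69.7 ± 7.42 TPM and Tmx1 64.9 ± 17.8 TPM, and the pancreas-type isomerase Pdia2 was listed at 0 in all libraries. In targeting and translocation, Srp54a averaged 384 ± 51.4 TPM, the ribosome receptor Rrbp1 201 ± 26.6 TPM and the receptor subunit Srpr 156 ± 14.0 TPM. Srp54a shares 76.98% of its words with other genes, mainly its copy Srp54b, so its level is uncertain. Srpr shares 30.8% of its words, mainly with the pseudogene Gm6733, so its level is uncertain too.

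In the glycosylation list, 14 of 15 genes lay above 1 TPM and 1 above 100 TPM, against 60.8% and 9.54% of all genes tested. The catalytic subunits of the oligosaccharyltransferase, Stt3b and Stt3a, averaged 126 ± 21.0 TPM and 113 ± 32.8 TPM, and Rpn1 averaged 118 ± 11.5 TPM. Of further degradation genes, 14 of 16 lay above 1 TPM, against 60.8% of all genes tested. Among them were the segregase Vcp at 482 ± 21.2 TPM and the conjugating enzyme Ube2j1 at 371 ± 40.6 TPM. Vcp shares 68.2% of its words with other genes. Derl3, a derlin paralogue, was listed at 0 in all libraries, although its promoter holds an ERSE match.

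Of further sensors and regulators, 13 of 16 lay above 1 TPM, against 60.8% of all genes tested. Ppp1r15a (GADD34), which restores translation after the integrated stress response, had 2045, 1803 and 1979 TPM. Atf4, the transcription factor of that response, averaged 779 ± 82.0 TPM and the stress inhibitor Tmbim6 335 ± 29.97 TPM. Eif2ak3 (PERK), the sensor beside Ern1 and Atf6, had 6.33, 11.4 and 10.5 TPM, below Atf6 and Ern1 in every library. It is given for that role and was chosen after its values were seen. Creb3l3, a liver and gut factor, had 0, 0.16 and 0 TPM and lay below 1 TPM (limma adjusted p = 0.0381), a call lost without replicate 1 or replicate 3, while without replicate 2 the gene was listed at 0. Ern2, the gut paralogue of Ern1, was listed at 0 in all libraries.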

How the data were processed

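Values were TPM per gene, which the authors had renormalised without mitochondrial genes (as the name they gave the deposited table says), and each deposited column summed to between 999999.85 and 1000000.3. The submitters' processing notes name mm10, CASAVA 1.8, RSEM 1.2.3 and Bowtie 0.12.9. What each tool did, the strand setting and the read totals are not stated there. Of 20308 genes, 7486 were at 0 in all 3 libraries and 12822 were tested.

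Levels were tested with limma 3.58.1 in R 4.3.3: an intercept on log2(TPM + 0.1), moved to 1 or 100 TPM, with a variance trend, Benjamini-Hochberg adjustment over 12822 genes and a threshold of 0.05. The code was tested on simulated data with 50 genes planted at each level. Against 1 TPM, 8%, 32% and 78% of genes planted 2-, 4- and 8-fold above it were called above. Against 100 TPM, 100% of genes planted 2-fold above it were. Of genes planted exactly at the level, 4% were called above and 4% below 1 TPM. At 100 TPM these shares were 8% and 2%. Gene pairs were compared by the log2 ratio within each library. Positions, transcript lengths and shared 31-base words came from GENCODE M21 (GRCm38), and promoters from RefSeq (GRCm38.p6), where Ero1l was matched as Ero1a. The members, lists, pairs and motifs were chosen with earlier results of these data known. Named genes were all members, which include every gene of the pairs, the 3 highest by mean TPM of each further list, and list genes below 1 TPM by the test. Of these, 1 gene that this rule names is not reported here. Pdia2, Derl3, Ern2 and Eif2ak3 were added after their values were seen.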

Additional observations from a re-analysis of the deposited data

How the results depend on the processing

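The counts of member genes above 1 TPM (40 to 41) and above 100 TPM (13 to 16) stayed within 1.5 times the reported counts under pseudocounts of 0.01 and 1, a filter at a mean of 0.1 TPM, upper-quartile scaling, no variance trend and each replicate left out. So did the further pathway genes above 1 TPM (70 to 73) and above 100 TPM (13 to 17) and the pairs with 1 sign (13 to 16). The members' share of TPM was 1.04% with ribosomal protein genes out of the denominator, which that construction raises, and 0.858% to 0.915% with 1 replicate left out. The median spread of the members was 20.93% with upper-quartile scaling, 18.28% over genes of at least 10 TPM and 13.01% to 20.34% with 1 replicate left out, and the cause was not tested. Signs turned for genes whose level had no call. Against 1 TPM on the log2 scale, Pdia5 was at 0.07 with a pseudocount of 1 (reported: -1.33), Sdf2l1 at -0.18 with 0.01 and at -0.41 to 2.94 with 1 replicate left out (0.81), and Sec61b at -0.57 to 3.83 (1.40). Against 100 TPM with 1 replicate left out, Sec61g was at -0.065 to 0.22, Ssr1 at -0.08 to 0.082 and Edem1 at -0.009 to 0.33. Of 343 member values against 100 TPM, 11 lost and 10 gained a call; without a variance trend Srp14, Srp72, Sec61b, Ssr4, Spcs1, Sec11c, Spcs3 and Ern1 lost theirs. Adjusted p-values with 1 replicate left out are not on the scale of those with all libraries. For P4hb against 1 TPM, the limma adjusted p went from 2.79e-13 to 4.26e-47 without replicate 1. No paired analysis was possible because all libraries form 1 group. TPM keeps no depth, so the precision of low values such as Pdia5, Sdf2l1 and Sec61b could not be set.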

Other observations

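Genes outside the endoplasmic reticulum lists whose promoters also hold ERSE letters were looked up after the values above were seen. Of 19 such genes in the table, matched by symbol or RefSeq synonym, 8 were above 0 in at least 1 library, 4 of these 8 lay above 1 TPM and 1 (12.5%) above 100 TPM (limma, Benjamini-Hochberg). That gene was Hnrnpa3, an RNA-binding protein, at 1373, 1541 and 1558 TPM. Their median was 7.07 TPM. Over all 17 tested genes with ERSE letters, the members and further pathway genes included, 13 (76.5%) lay above 1 TPM and 7 (41.2%) above 100 TPM. Of those above 100 TPM, all but Hnrnpa3 were members or further pathway genes. Over the 10171 tested genes with any RefSeq promoter, 61.3% lay above 1 TPM and 9.7% above 100 TPM, with a median of 11.78 TPM.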
